A study of Mus musculus with 8 samples.

Results

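The Ifitm genes Ifitm1, Ifitm2, Ifitm3, Ifitm5 and Ifitm6 were followed through the switch of a mouse pre-B cell line into macrophage-like cells. They were chosen by name: a probe was a member when the gene name given in the scanner files was one of these 5. Each gene had 1 probe, so 5 of the 39429 probes on the array were members, and all 5 were among the 16151 genes tested. Ifitm2 and Ifitm3 were above background on all 8 arrays. Ifitm1, Ifitm5 and Ifitm6 passed the filter on dim probes only through the 24 h arrays, where they were high, so their rise was a condition of being tested and their number is given as a description.

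The cells were C10, an established mouse line derived from the pre-B cell line HAFTL with an inducible C/EBPα, a transcription factor that drives B-lineage cells towards a myeloid fate. All 4 groups came from this line: cells with a control shRNA and cells labelled as carrying a Tet2 knockdown, each uninduced (0 h) and after 24 h with beta-estradiol (100 nM), IL-3 (10 ng/ml) and M-CSF (10 ng/ml) in the medium, which held puromycin throughout. The 3 agents were given together, so a change over 24 h cannot be assigned to C/EBPα, to a cytokine or to estradiol. Each group had n = 2 arrays, which the series design names technical duplicates. All p-values below rest on how far duplicate arrays lie apart and carry no culture-to-culture error. Uninduced control and labelled knockdown cells differed in their shRNA, and nothing in the labels says how many clones were used.

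Ifitm proteins are small membrane proteins of the CD225 family. They are anchored in cell and endosomal membranes, are modified by palmitoylation, and are best known for hindering the fusion of enveloped viruses with the host membrane. Several members are classic interferon-stimulated genes, and human IFITM1 was first described on leukocytes, where it joins the B-cell surface complex that holds CD21 and CD81. Ifitm5, called BRIL in bone, is known mainly from osteoblasts and is not regarded as an interferon-stimulated gene.

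The scale used throughout is log2 of a probe's processed signal minus log2 of that array's 75th percentile signal, so 0 means a probe at the 75th percentile. Probes differ in how strongly they bind, so levels were compared between groups for 1 probe and never between probes. Calls used limma with Benjamini-Hochberg adjustment across the 16151 tested genes and needed both an adjusted p under 0.05 and a 2-fold change. Test results for Tet2 and for probes that share bases with a member came from a fit of all 20304 kept probes, with adjustment across those. The ± values are standard errors of that fit.

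Duplicate arrays correlated with r from 0.9923 to 0.9939. The share of probe spots well above background ran from 47.4% to 55.6%, and no spot was saturated. The pre-B markers fixed for checking the cells were above background in all groups, 10 of 10. Their summed level was 475 to 513 times the 75th percentile signal in control cells at 0 h and 260 to 287 at 24 h, and 451 to 521 and 357 to 377 in the line labelled knockdown. The summed level of 10 macrophage markers was 6.06 to 6.48 at 0 h and 967 to 1025 at 24 h in control cells, and 5.61 to 6.02 and 961 to 1046 in the line labelled knockdown. Among 10 T cell markers, Cd3g and Cd8a were not above background on any array, and the summed level was 6.24 to 9.26 over all groups. Of 9 erythroid and megakaryocyte markers on the array, 3 to 4 were above background on both arrays of a group, with summed levels of 15.5 to 17.6 in control cells at 0 h, 9.56 to 9.99 at 24 h, and 6.57 to 6.73 over both groups of the line labelled knockdown. Of 8 stromal markers, 1 to 3 were above background on both arrays of a group, and the summed level was 0.692 to 0.693 at 0 h and 10.3 to 10.4 at 24 h in control cells, and 0.196 to 0.273 and 6.96 to 7.03 in the line labelled knockdown. Fewer cells of a type and less RNA per cell cannot be told apart in these bulk samples. Tet2 itself did not pass the test for a lower level in the line labelled knockdown: the log2 difference was -0.11 ± 0.10 at 0 h (limma adjusted p = 0.537, Benjamini-Hochberg) and 0.01 ± 0.10 at 24 h (adjusted p = 0.982). Another Tet2 probe gave -0.28 ± 0.13 (adjusted p = 0.229) and 0.16 ± 0.13 (adjusted p = 0.49), so comparisons between the lines are comparisons of labels.

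The members' probes lie within 65.8 kb on mouse chromosome 7 in the coordinates of the array design, build mm9. In order along the chromosome they are Ifitm5 at 148135949 to 148136008 on the minus strand, Ifitm2 at 148140881 to 148140940 on the minus strand, Ifitm1 at 148155659 to 148155718 on the plus strand, Ifitm3 at 148195591 to 148195650 on the minus strand and Ifitm6 at 148201714 to 148201773 on the minus strand. No gene models of build mm9 were used here, so exons and untranslated regions are not assigned. The probes are 60 bases long, and what each can detect decides what the values below can say, so a stretch of 30 bases of each is given as the array design spells it. The longest run shared by any pair of member probes was 5 to 8 bases, so the members were measured by dissimilar probes. Ifitm1 and Ifitm2 are shown from base 31 to base 60, with the bases in capitals shared, in the same order, with a probe for another locus. The other 3 are shown from base 1 to base 30.
Ifitm1: CTCAATAAAGTGCACGTGCTGTGActttct
Probe A_55_P2087265 (Gm7676): ACTCAATAAAGTGCACGTGCTGTGAaaaaa
Ifitm2: CAAAGAACACCCCATTCTGGATTCTAGCTG
Probe A_55_P1975843 (unnamed): CAAAGAACACCCCATTCTGGATTCTAGCTG
Ifitm3: cttaacgctcaaaaccttcacacttaatag
Ifitm5: caccacgagatcacatgctctggtctgtct
Ifitm6: gactactaaattcttccatgcactgtcttc

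The Ifitm1 probe shares an unbroken run of 54 bases with the probe for Gm7676, a locus on chromosome 8 (13896764 to 13896823, mm9), and the Ifitm2 probe shares 36 bases with an unnamed probe on chromosome X (57679257 to 57679316). A shorter run of 18 bases joins the Ifitm2 probe to unnamed probe A_55_P1988481 on chromosome 14 (55445072 to 55445131). The Ifitm6 probe shares 17 bases with the probe for the olfactory receptor gene Olfr816 on chromosome 10, which did not pass the filter. Runs of at least 16 bases were searched over all probes of the array, and the Ifitm3 and Ifitm5 probes had none with a probe for another locus.

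All 5 members had a RefSeq sequence around their start site (build GRCm38.p6), from 250 bases before to 50 bases after it, and these windows were searched on both strands for 3 motifs that fit interferon and C/EBP signalling. The core of the interferon-stimulated response element, GAAANNGAAA, occurs in 3.443% of the 32851 windows of this length. It was found in the Ifitm2 and Ifitm3 windows. The gamma-activated sequence TTCNNNGAA occurs in 8.298% of windows and was found in the Ifitm3 and Ifitm6 windows. The C/EBP form TTGCNNAA occurs in 10.797% of windows and was found in no member's window, and the Ifitm1 and Ifitm5 windows held none of the 3. The stretches that carry the matches are shown together with Ifitm1 for comparison. Capitals mark the response-element cores in Ifitm2 and Ifitm3 and the gamma-activated match in Ifitm6, while the gamma-activated match of Ifitm3 is partly in lower case because it overlaps a core. The Ifitm1, Ifitm2 and Ifitm6 stretches are the 100 bases before the start site, at chr7:140967976-140968075 on the plus strand and at chr7:140955962-140956061 and chr7:141016893-141016992 on the minus strand. The Ifitm3 stretch is bases 2 to 31 of the transcript, at chr7:141010714-141010743 on the minus strand.
Ifitm1: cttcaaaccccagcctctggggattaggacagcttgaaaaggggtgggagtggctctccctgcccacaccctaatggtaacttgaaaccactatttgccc
Ifitm2: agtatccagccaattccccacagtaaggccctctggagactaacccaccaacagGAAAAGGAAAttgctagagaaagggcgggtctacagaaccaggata
Ifitm3: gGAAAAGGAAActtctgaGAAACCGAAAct
Ifitm6: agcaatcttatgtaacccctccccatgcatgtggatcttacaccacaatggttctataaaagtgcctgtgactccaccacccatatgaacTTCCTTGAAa

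In Ifitm2 the response-element core ended 37 bases before the start, and in Ifitm6 the gamma-activated match ended 2 bases before it. Ifitm3 held 2 response-element cores, at transcript bases 3 to 12 and 20 to 29, and a gamma-activated match, TTCTGAGAA at bases 14 to 22, that overlaps the second core. Among the interferon-stimulated restriction factors listed for comparison, 8 of the 15 with a window held the core. A match describes letters in the window and is not evidence that a factor bound there.

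Ifitm1 and Ifitm6 were not well above background at 0 h and gave bright signals at 24 h in both lines. Ifitm1, the member reported on the surface of leukocytes, had log2 levels of -6.94 and -7.34 in control cells at 0 h, neither well above background, and 6.04 and 5.98 at 24 h. In the line labelled knockdown its levels were -7.45 and -8.08 at 0 h, again not well above background, and 4.60 and 4.62 at 24 h. The 24 h arrays of the lines did not overlap, and the order was control 24 h, labelled knockdown 24 h, then both 0 h groups without a measured order.

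Ifitm6, whose product has been studied little, read -5.35 and -5.99 in control cells at 0 h and -7.16 and -7.62 in the line labelled knockdown, all 4 not well above background. At 24 h it read 7.04 and 6.97 in control cells and 6.47 and 6.33 in the line labelled knockdown. As with Ifitm1, every 24 h array of the control line lay above both of the line labelled knockdown. How often other genes show such an order of duplicate arrays was not counted, so it is given as a description only.

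Because these probes were not well above background at 0 h, their induction is given as a bound. A 0 h value below the lowest signal found well above background on its array was raised to that signal. The Ifitm6 value of control replicate 1 lay above it (-5.35 against -5.48) and was kept, so that signal is not a strict limit of detection. In control cells the lower bounds were 2576-fold for Ifitm1 and 4935-fold for Ifitm6 at 24 h against 0 h (log2 11.33 and 12.27). The fitted changes were log2 13.15 and 12.68 (limma adjusted p = 1.12e-06 and 1.37e-06, Benjamini-Hochberg). In the deposited value table the changes were log2 9.71 and 10.33, below the bounds. For the line labelled knockdown the bounds were 1120-fold and 3857-fold (log2 10.13 and 11.91). The fitted changes were log2 12.38 and 13.79 (adjusted p = 9.54e-07 and 9.21e-07), and 8.52 and 9.92 in the deposited value table. The bounds therefore hold only for the scale used here. These p-values test fitted changes that rest on 0 h values not well above background, and do not test the bounds. Both probes were tested only because they were high at 24 h, so the p-values are no support for a rise. Processed signals, without scaling, were 71811 and 78830 intensity units for Ifitm1 on the control 24 h arrays against 8.24 and 7.50 at 0 h.

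**Figure D1:**
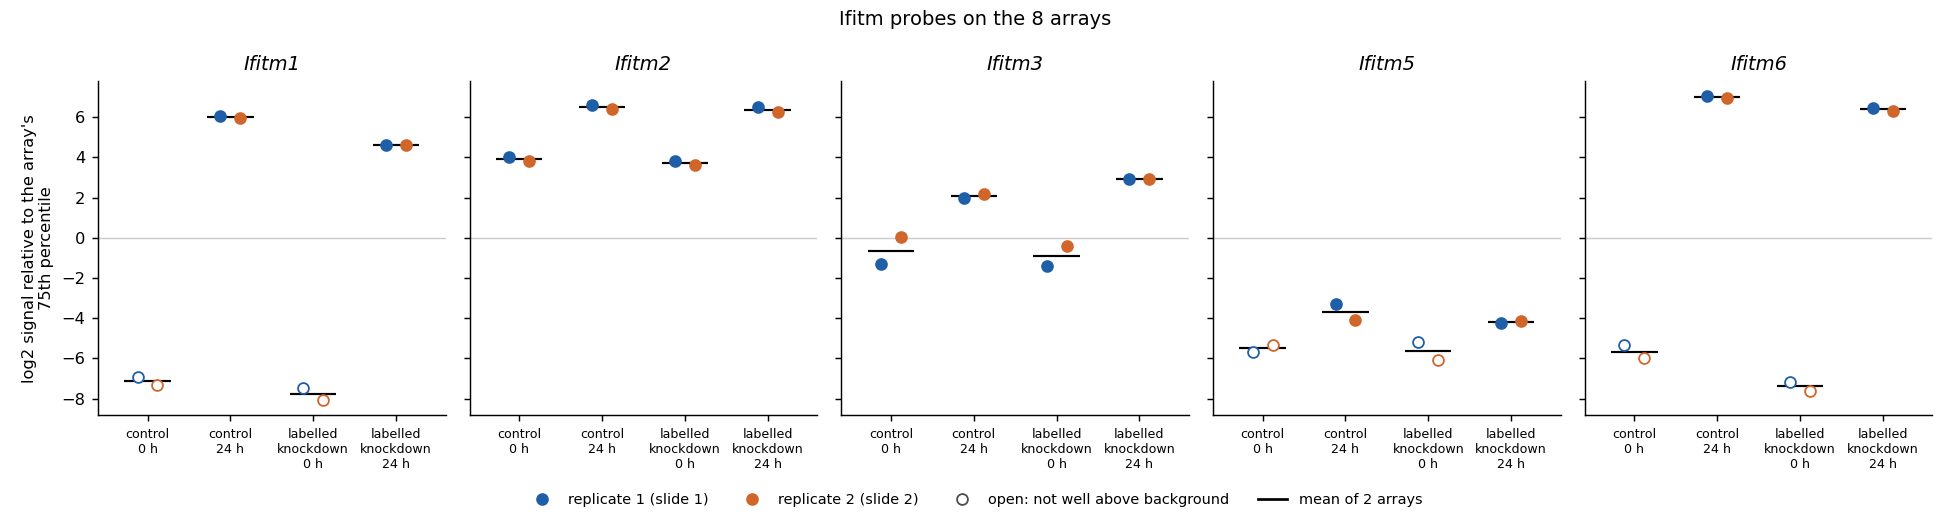
Level of each Ifitm probe on each of the 8 arrays, as log2 signal relative to the array's 75th percentile (vertical axis), by group (horizontal axis). Points are single arrays, coloured by slide, open where the probe was not well above background, and bars are means of 2 arrays. Ifitm1 and Ifitm6 go from open points below -5 to filled points above 4, while Ifitm2 is measured in all groups and the Ifitm3 duplicates lie apart at 0 h only.

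Ifitm2, an interferon-stimulated family member close in sequence to Ifitm3, was already expressed before induction. It read 4.0 and 3.84 in control cells at 0 h and 6.62 and 6.39 at 24 h, and 3.84 and 3.64 at 0 h and 6.49 and 6.28 at 24 h in the line labelled knockdown. All 24 h arrays lay above all 0 h arrays, while the lines overlapped or nearly met at each time. Ifitm2 rose 6.0-fold in control cells (log2 2.59 ± 0.13, limma adjusted p = 2.43e-05, Benjamini-Hochberg). The line labelled knockdown showed a 6.25-fold rise (2.64 ± 0.13, adjusted p = 1.93e-05). Within slide 1 and slide 2 the control induction was 2.62 and 2.55, and that of the line labelled knockdown was 2.65 and 2.64.

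Ifitm3, the member best known for restricting influenza virus in late endosomes and, in B cells, for binding the phospholipid product of PI3K, was also measured in all groups. It read -1.31 and 0.02 in control cells at 0 h and 1.99 and 2.20 at 24 h. In the line labelled knockdown it read -1.41 and -0.41 at 0 h and 2.92 and 2.92 at 24 h. The 0 h groups overlapped, all 24 h arrays lay above them, and both 24 h arrays of the line labelled knockdown lay above both of the control line. Ifitm3 rose 6.68-fold in control cells (log2 2.74 ± 0.51, 95% interval 1.47 to 4.01, limma adjusted p = 0.0048, Benjamini-Hochberg). Its rise was 14.2-fold in the line labelled knockdown (3.83 ± 0.51, interval 2.56 to 5.10, adjusted p = 0.00107). Within slides the control value was 3.30 on slide 1 and 2.18 on slide 2, and the value of the line labelled knockdown was 4.33 and 3.33.

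Ifitm5, the bone-associated member, stayed near the limit of detection. It was not well above background on any 0 h array (-5.69 and -5.31 in control cells, -5.16 and -6.10 in the line labelled knockdown) and was well above it on all 24 h arrays (-3.28 and -4.11, and -4.23 and -4.15). Processed signals were 19.5 to 30.6 intensity units at 0 h and 72.5 to 112 at 24 h in control cells. In the line labelled knockdown they were 20.9 to 28.9 and 38.4 to 50.5. Before background subtraction and scaling, the mean signals in control cells were 64.9 and 82.6 at 0 h and 169 and 127 at 24 h. In the line labelled knockdown they were 80.3 and 63.9 at 0 h and 77.3 and 104 at 24 h, so slide 1 showed no rise there. The lower bound on its rise was 3.09-fold in control cells, with a fitted change of log2 1.81 (limma adjusted p = 0.0095, Benjamini-Hochberg). For the line labelled knockdown the bound was 2.48-fold, with a fitted change of log2 1.44 (adjusted p = 0.0205). Both p-values test the fitted changes, which use 0 h values not well above background. These calls depended on the treatment of low signals. In the deposited value table the changes were 0.57 (adjusted p = 0.0354) and 0.34 (adjusted p = 0.154) on the log2 scale, under 2-fold, and over the alternatives tried the adjusted p ran from 0.00658 to 0.0354 in control cells and from 0.018 to 0.154 in the line labelled knockdown. Leaving out control 0 h replicate 1 ended the control call (adjusted p = 0.0541), and leaving out labelled knockdown 0 h replicate 2 or either 24 h array of that line ended the other (0.0786, 0.0681 and 0.0801).

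All 5 members were called higher in both inductions, but Ifitm1, Ifitm5 and Ifitm6 could only have passed the filter by being higher at 24 h, so this count is no support. Over all 16151 genes, 27.3% were called in the control induction, 14.2% higher and 13.1% lower, and 32.2% in that of the line labelled knockdown, 16.7% higher and 15.4% lower. With scaling on the array median in place of the 75th percentile, the median change of all genes moved from -0.00 to -0.11 in the control induction and from 0.14 to -0.11 in the other, and 2172 genes were higher and 3385 lower in the latter against 2700 and 2494 as reported. The 5 members kept their direction under that scaling.

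**Figure D2:**
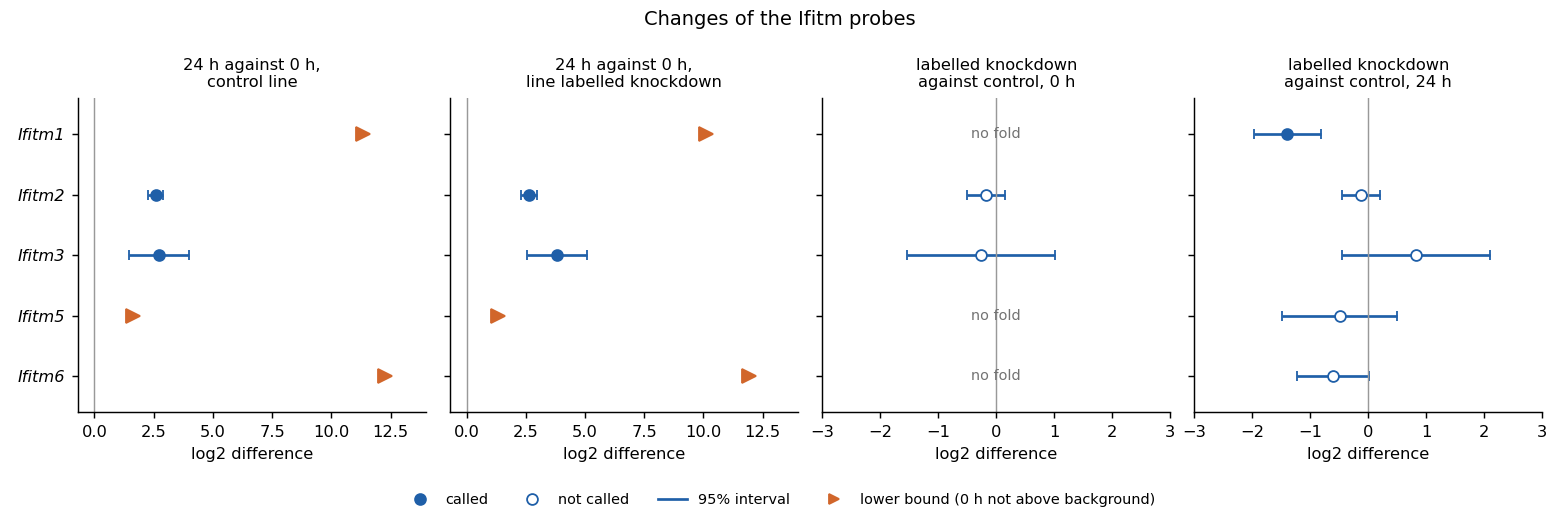
Change of each Ifitm probe in the 4 comparisons between groups (horizontal axis, log2 difference, on a wider scale for the inductions). Circles are fitted changes with 95% intervals, filled where called. Triangles are bounds from group means, drawn without an interval, where the 0 h arrays were not well above background. Among the probes well above background in both lines, Ifitm1 at 24 h, at -1.39, is the only one with a call between the lines, and the panel for 0 h draws no value for Ifitm1, Ifitm5 and Ifitm6.

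The comparison of the lines at 0 h asked whether the labelled knockdown changed these genes before induction. Only Ifitm2 and Ifitm3 were well above background in both groups, and neither was called. The difference was -0.18 ± 0.13 for Ifitm2 (limma adjusted p = 0.417, Benjamini-Hochberg; 95% interval -0.51 to 0.15), with -0.16 and -0.20 within the slides, and -0.26 ± 0.51 for Ifitm3 (adjusted p = 0.785; interval -1.54 to 1.01). With the slide as a replicate block the Ifitm2 difference was -0.18 ± 0.04 (adjusted p = 0.0486), under 2-fold and not called, and over the alternatives its adjusted p ran from 0.0486 to 0.923. The Ifitm3 interval leaves room for a change of over 2-fold in either direction. Over all genes 1.72% were called at 0 h, 0.328% higher and 1.39% lower. Ifitm1, Ifitm5 and Ifitm6 were not well above background in either group and get no fold. The fit's own value for Ifitm6 was -1.72 ± 0.25 (adjusted p = 0.0137), past both thresholds, and it compares signals that are not well above background.

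At 24 h Ifitm1 was lower in the line labelled knockdown. The difference was -1.39 ± 0.23 on the log2 scale, with a 95% interval of -1.97 to -0.81 and limma adjusted p = 0.0195 (Benjamini-Hochberg), and it was -1.43 on slide 1 and -1.35 on slide 2. This was 1 call among 5 members, against 2.04% of all genes called, 1.04% higher and 0.997% lower. The Ifitm1 standard error uses the spread of all 4 groups, which includes 0 h values not well above background. Fitting only the 24 h arrays gave -1.39 ± 0.06 (limma adjusted p = 0.0173, Benjamini-Hochberg). The size hardly moved over the alternatives, from -1.46 to -1.37, while the adjusted p ran from 0.000374 to 0.101. The call was lost with median scaling (adjusted p = 0.0516), with no filter on dim probes (0.101) and when any 1 of the 4 arrays of the 24 h groups was left out (0.0901 to 0.0989).

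The other 4 members were not called at 24 h. Ifitm6 was -0.61 ± 0.25 (95% interval -1.23 to 0.01, limma adjusted p = 0.167, Benjamini-Hochberg), with -0.57 and -0.64 within the slides, and the arrays of the lines did not overlap. The Ifitm6 standard error includes the spread of 0 h values not well above background. Fitting only the 24 h arrays gave -0.61 ± 0.08 (adjusted p = 0.054). The deposited value table gave -0.74 (adjusted p = 0.0166), under 2-fold and not called. Over the alternatives the Ifitm6 adjusted p ran from 0.0166 to 0.513. Ifitm3 was 0.83 ± 0.51 (adjusted p = 0.337; interval -0.45 to 2.10), with 0.93 and 0.72 within the slides, also without overlap. That standard error uses the spread of all 4 groups, and the Ifitm3 duplicates lay apart at 0 h. Fitting only the 24 h arrays gave 0.83 ± 0.10 for Ifitm3 (limma adjusted p = 0.047, Benjamini-Hochberg), under 2-fold and not called. Its adjusted p over the alternatives ran from 0.047 to 0.687. Ifitm5 was -0.49 ± 0.40 (adjusted p = 0.465) and Ifitm2 was -0.12 ± 0.13 (adjusted p = 0.595; interval -0.45 to 0.20). For Ifitm2 the interval excludes a change of 2-fold, and for Ifitm3, Ifitm5 and Ifitm6 it does not. How many other genes had 24 h arrays without overlap was not counted. The lack of overlap for Ifitm3 and Ifitm6 is therefore a description and no support for a difference between the lines.

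The difference between the inductions was called for none of the 5 members, against 3.82% of all genes, 2.36% higher and 1.46% lower; with median scaling the called genes split into 102 higher and 110 lower in place of 381 and 236. It was 0.06 ± 0.19 for Ifitm2 (limma adjusted p = 0.863, Benjamini-Hochberg), a value whose sign turned under other scalings, and 1.09 ± 0.72 for Ifitm3 (adjusted p = 0.354; 95% interval -0.71 to 2.89), which ran from 0.42 to 1.76 when 1 array was left out. For Ifitm1 (-0.77, adjusted p = 0.172), Ifitm5 (-0.36, adjusted p = 0.711) and Ifitm6 (1.11 ± 0.35, adjusted p = 0.0898) it rests on 0 h values not well above background and is a fitted value only. With the slide as a replicate block the Ifitm6 value passed the threshold (1.11 ± 0.23, adjusted p = 0.0289), and in the deposited value table its sign turned (-0.40, adjusted p = 0.208). In that table the Ifitm1 value passed it (-1.20, adjusted p = 0.00375). Over the alternatives the adjusted p ran from 0.00375 to 0.474 for Ifitm1 and from 0.0289 to 0.457 for Ifitm6.

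The duplicates of Ifitm3 had an SD of 0.94 and 0.71 on the log2 scale at 0 h, in control cells and in the line labelled knockdown, and of 0.15 and 0.00 at 24 h. Its probe had 10 spots per array. On the slide 1 array of control 0 h cells the 9 spots used read 341 to 507 intensity units, and on the slide 2 array the 8 spots used read 1090 to 1378. In the line labelled knockdown the 9 spots used on slide 1 read 283 to 448, and the 10 on slide 2 read 566 to 1512. At 24 h the spots of control cells read 4122 to 4491 and 5142 to 6202, and those of the line labelled knockdown 5249 to 5716 and 6089 to 7150. The spots of slide 1 and slide 2 did not overlap in any group before scaling.

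After scaling, the slide 2 value exceeded the slide 1 value by 1.33 (2.52-fold) in control cells and 1.00 (2.00-fold) in the line labelled knockdown at 0 h, but by 0.21 and -0.00 at 24 h. Duplicates differed by more than this in 1.86% and 4.27% of genes at 0 h. In the deposited value table the 0 h differences were 1.16 and 0.84. The 11 listed interferon-stimulated restriction factors above background on all 0 h arrays had differences from -0.17 to 0.30, with a median of -0.02 in each line, so the slide gap of Ifitm3 was not seen in them. The same array, slide 2 of labelled knockdown cells at 0 h, had the most uneven Ifitm3 spots. Their SD was 0.57 on the log2 scale, larger than that of every other of the 208 probes with 10 spots on that array (median 0.06). On it 3 spots read 566 to 681 and 7 read 1185 to 1512, and the 3 lay within the first 23 of 85 columns and the first 176 of 532 rows. Whether position on the array bears on the gap was not tested.

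**Figure D3:**
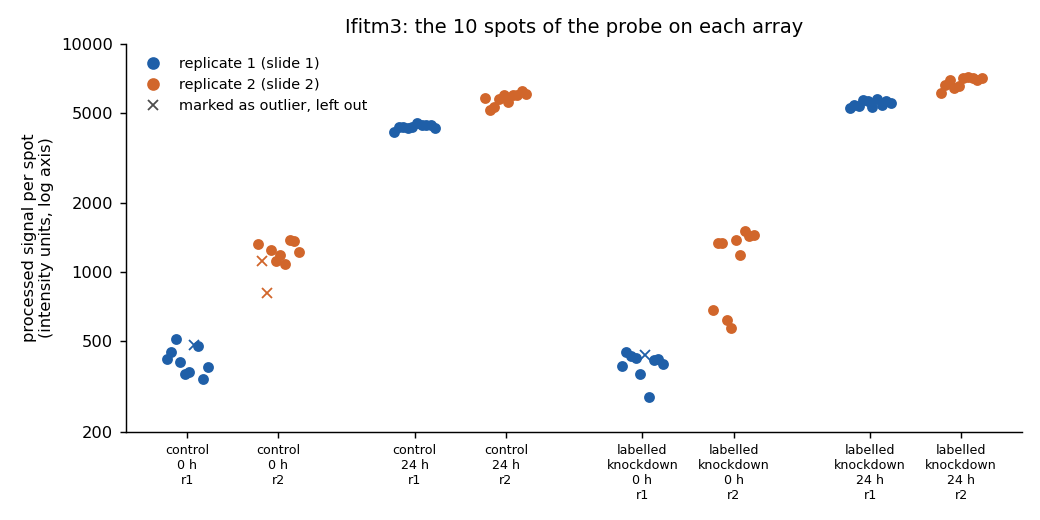
Processed signal of each of the 10 Ifitm3 spots on each array (vertical log axis, intensity units), by group and replicate, coloured by slide, with crosses for spots marked as outliers and left out. The 0 h duplicates lie apart by slide in both lines, and the slide 2 array of the labelled knockdown cells at 0 h splits into 3 spots of 566 to 681 and 7 of 1185 to 1512.

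The 3 tested probes that share a run of bases with Ifitm1 or Ifitm2 changed much as that member did, while the Olfr816 probe, which shares 17 bases with the Ifitm6 probe, did not pass the filter. The Gm7676 probe was not well above background on any 0 h array (-7.21 and -7.19 in control cells, -7.05 and -7.86 in the line labelled knockdown) and read 5.96 and 5.86, and 4.50 and 4.54, at 24 h. Its difference between the lines at 24 h was -1.39 ± 0.25 (limma adjusted p = 0.0258, Benjamini-Hochberg), as large as that of Ifitm1. The unnamed probe on chromosome X rose by 2.70 ± 0.06 in control cells (adjusted p = 1.49e-06) and 2.68 ± 0.06 in the line labelled knockdown (adjusted p = 1.19e-06), against 2.59 and 2.64 for Ifitm2, and the chromosome 14 probe with the 18-base run rose by 2.77 ± 0.29 and 2.86 ± 0.29 (adjusted p = 0.000409 and 0.000311). Signal from one transcript on both probes and separate transcripts cannot be told apart with these probes, so the Ifitm1 and Ifitm2 values are uncertain to that extent, and the Gm7676 call is no independent repeat of the Ifitm1 call.

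**Figure D4:**
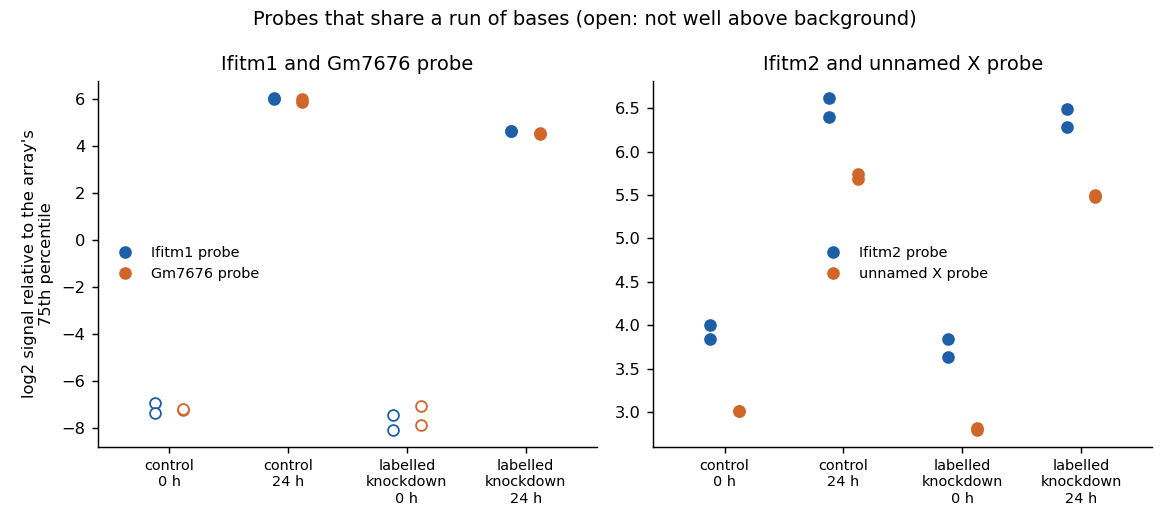
Levels on the 8 arrays (vertical axis, log2 relative to the array's 75th percentile) of the Ifitm1 probe beside the Gm7676 probe, and of the Ifitm2 probe beside the unnamed chromosome X probe, by group. Open points are not well above background. In each panel both probes move between the groups alike, with the Gm7676 probe at 5.96 and 5.86 in control cells at 24 h beside 6.04 and 5.98 for Ifitm1.

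Likeness of profile was measured as the root mean square distance over the 8 arrays after each gene was centred on its own mean, a smaller distance meaning a closer profile. Apart from Gm7676 at 0.21, the gene closest to Ifitm1 was Ifitm6 at 0.54, and Ifitm1 was the closest to Ifitm6. Both were followed by the same 3 genes in another order: Il1b, an inflammatory cytokine, at 0.56 and 0.92, Mmp8, a collagenase of neutrophils, at 0.60 and 1.00, and Ccl2, a monocyte chemoattractant, at 0.85 and 0.90. Ifitm2 was closest to Fxyd5 (0.07), Nfic (0.08), Serpinf1 (0.09), Cisd3 (0.11) and the unnamed chromosome X probe (0.11). Among the closest named genes were Papss2 (0.26), Rnf224 (0.29) and Dnase1l3 (0.34) for Ifitm3, beside 2 unnamed probes (0.26 and 0.35), and Kcnj10 (0.23), Fnbp1 (0.25) and Syt8 (0.27) for Ifitm5. Among the members, Ifitm2 lay 0.69 from Ifitm3 and 0.58 from Ifitm5, Ifitm3 lay 1.13 from Ifitm5, and Ifitm1 and Ifitm6 lay 4.84 to 5.84 from the other 3. Distances that involve Ifitm1, Ifitm5 or Ifitm6 include 0 h values not well above background.

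The genes beside the cluster were described in the same way. For the counts here and in the lists below, 14.2% of all genes were higher and 13.1% lower in the control induction. In that of the line labelled knockdown 16.7% were higher and 15.4% lower. Between the lines 0.328% were higher and 1.39% lower at 0 h, and 1.04% and 0.997% at 24 h. In the difference between the inductions 2.36% were higher and 1.46% lower. Of the 10 annotated genes on each side of the cluster, 14 were on the array and 11 were tested. In control cells 2 were higher, Pgghg (1.09 ± 0.09) and Rnh1, a ribonuclease inhibitor (1.03 ± 0.12), and none was lower, and in the line labelled knockdown Bet1l (1.07 ± 0.09) joined Pgghg (1.09 ± 0.09) and Rnh1 (1.36 ± 0.12). The median change of the 11 was 0.38 and 0.76, against -0.00 and 0.14 over all genes. None was called between the lines at 0 h or at 24 h or in the difference between the inductions.

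Outside the cluster, 4 of the 10 listed CD225-family genes were tested. Ifitm7, an Ifitm gene outside the cluster, rose by 1.52 ± 0.08 in control cells and 1.49 ± 0.08 in the line labelled knockdown (limma adjusted p = 2.46e-05 and 2.3e-05, Benjamini-Hochberg). Tmem91 fell by 2.75 and 2.53 and Syndig1l was called lower, the latter measured at 0 h only, while Prrt1 was not called. None of the 4 was called between the lines at either time.

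Among 10 tested genes for enzymes and partners of IFITM proteins, 1 was called in each induction and none between the lines. It was Nedd4, a ubiquitin ligase that marks IFITM3 for turnover, which fell by 1.53 ± 0.09 in control cells and 1.31 ± 0.09 in the line labelled knockdown (limma adjusted p = 5.01e-05 and 8.23e-05, Benjamini-Hochberg). The palmitoyltransferase genes Zdhhc7 and Zdhhc20 changed by 0.58 ± 0.10 and 0.50 ± 0.07 in control cells, under 2-fold. The list's median was 0.23 in control cells and -0.15 in the line labelled knockdown.

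Of 7 tested genes for the B-cell surface complex and related tetraspanins, 2 were higher and 2 lower in control cells. The leukocyte tetraspanin genes Cd53 (2.34 ± 0.07) and Cd82 (1.21 ± 0.06) rose, and Cd37 (-1.14 ± 0.06) and Cr2, which encodes CD21 (-1.41 ± 0.10), fell. In the line labelled knockdown Cd53 (2.22 ± 0.07) and Cd82 (1.60 ± 0.06) rose and Cr2 (-1.15 ± 0.10) fell, and Cd37 was at -0.41 ± 0.06, not called. Cd81 (0.84 and 0.93) stayed under 2-fold. None of the 7 was called between the lines.

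All 7 tested genes of the IL-3, M-CSF and C/EBP axis were higher in both inductions and none was called between the lines. The M-CSF receptor gene Csf1r rose by 6.90 ± 0.20 in control cells and 7.04 ± 0.20 in the line labelled knockdown, Cebpd by 5.06 ± 0.10 and 5.26 ± 0.10, Cebpb by 3.02 ± 0.06 and 3.1 ± 0.06, and the receptor-chain gene Csf2rb by 4.07 ± 0.10 and 4.28 ± 0.10.

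Of 20 tested genes for interferon ligands, receptors and signalling, 13 were higher in control cells and 14 in the line labelled knockdown, none lower, with medians of 1.61 and 1.94. Of the 13, 1 was not well above background in either group of control cells. The receptor genes Ifnar1 (1.71 ± 0.06 and 1.55 ± 0.06) and Ifngr2 (1.75 ± 0.12 and 2.21 ± 0.12) and the feedback inhibitor Socs3 (7.49 ± 0.09 and 7.07 ± 0.09) were among them. None was called at 0 h, and 4 were higher in the line labelled knockdown at 24 h, among them Stat2 (1.03 ± 0.05), Usp18 (2.93 ± 0.12) and Irf7 (2.63 ± 0.16). The ligand gene Ifna1 changed by 0.11 ± 0.59 and 0.43 ± 0.59 and was not called, and Ifna4, Ifnb1 and Ifng did not pass the filter.

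The listed interferon-stimulated restriction factors, which like the Ifitm genes limit viral infection, gave different counts from the members in the comparison of the lines. In control cells 11 of 18 were higher, Mx1 among them although it was not well above background in either group, and 2 were lower, Ifit2 (-2.47 ± 0.09) and Ifit1 (-1.32 ± 0.12). In the line labelled knockdown 17 of 18 were higher. At 0 h 4 were lower in the line labelled knockdown, Ifit1 (-2.42 ± 0.12), Oasl1 (-1.56 ± 0.06), Ifit3 (-1.30 ± 0.14) and Mx2, and none was higher. At 24 h 12 of 18 were higher in the line labelled knockdown, against 1.04% of all genes. The median was 2.22 over the list against 0.04 over all genes. In the difference between the inductions 13 of 18 were higher, against 2.36% of all genes, with a median of 2.44. Examples at 24 h were Ifit3 (3.76 ± 0.14, limma adjusted p = 0.000421, Benjamini-Hochberg), Rtp4 (5.04 ± 0.22, adjusted p = 0.000779) and Isg15 (2.24 ± 0.09, adjusted p = 0.000502). No Ifitm member was called higher in the line labelled knockdown at 24 h, where Ifitm1 was called lower, and the member nearest in sign, Ifitm3, read 0.83 ± 0.51. This sets counts beside each other. A difference between the list and the members was not tested. The list was chosen with earlier results of these data known, so its excess over all genes is a description only.

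**Figure D5:**
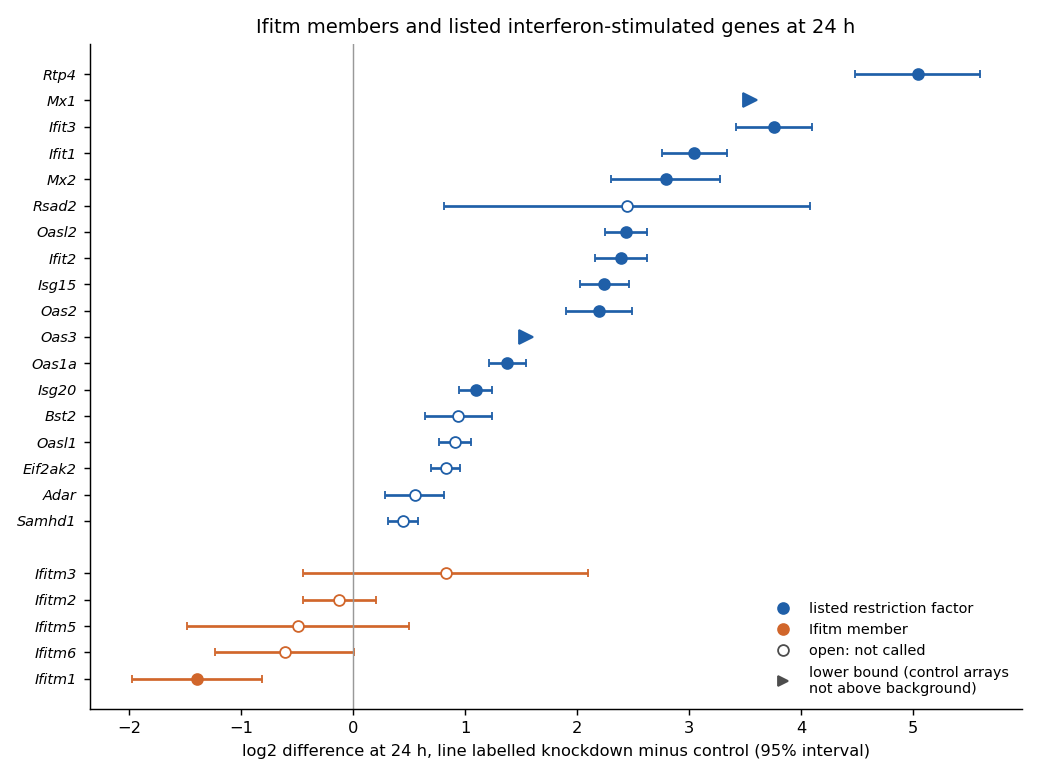
Difference between the lines at 24 h (horizontal axis, log2, line labelled knockdown minus control) for the 5 Ifitm members and the 18 tested interferon-stimulated restriction factors, with 95% intervals. Filled circles are called, open ones are not, and triangles are lower bounds where the control arrays were not well above background. All 18 listed genes lie above 0, and of the members Ifitm3 alone does, with an interval of -0.45 to 2.10. The intervals use the spread of all 4 groups. That includes 0 h duplicates that lie apart for Ifitm3, and 0 h values not well above background for Ifitm1, Ifitm5 and Ifitm6.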

How the data were processed

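RNA from 8 samples was hybridised to 1-colour Agilent mouse arrays. Per the file headers, a processed signal (spot intensity, background subtracted) came from Feature Extraction 10.7.3.1 (design 026655, build mm9). The authors' deposited value table holds log2 values. The submitters' processing notes name limma, and the background correction and normalization are not given in the sources used here. Normexp (offset 50) with quantile normalization gave the same results as that table.

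Outlier spots (155 to 219 per array) and 1377 control spots were left out, and spots of a probe were averaged on the log2 scale relative to the array's 75th percentile. Probes well above background on both arrays in 1 or more groups were kept (20304), and the brightest kept probe on average represented a gene (16151). The fit used limma 3.58.1 (with R 4.3.3 and data.table version 1.17.8), 4 group means and eBayes, with 5 contrasts, 2-sided. The number of arrays limits the precision (median standard error 0.10, and 0.14 for the difference between the inductions). On simulated data for the control induction (16118 genes), 90% of 100 genes changed by log2 2 and 96% of 100 changed by log2 4 were recovered, with 3 false calls. The simulated noise was independent on each array, without a shared slide effect, and few genes were changed. These rates therefore need not hold for the real arrays.

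For bounds, values of a dim group were raised to the lowest signal well above background on each array where they lay below it. Gene names came from RefSeq by accession (11618), symbol (580) or synonym (89), and 3864 kept the file's name. Slide numbers in the file headers put replicate 1 of each group on slide 1 and replicate 2 on slide 2. Deviations of same-numbered arrays from their group means correlated with r from 0.298 to 0.413 over 6 pairs of groups, so the numbers pair the arrays. The genes named are the members, the lists around them and the 5 closest profiles of each, and a few of these are not reported here. Members and lists were chosen with earlier results of these data known.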

Additional observations from a re-analysis of the deposited data

How the results depend on the processing

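Results were recomputed under 11 other settings, within each slide, and leaving out each of the 8 arrays in turn. One setting, keeping outlier spots, was chosen after seeing the data. The inductions of Ifitm2 and Ifitm3 kept their direction under all of these and their call wherever a test was run. Values within a slide allow no test. The inductions of Ifitm1 and Ifitm6 did so too. Under the filter on dim probes their rise was a condition of being tested, so this is no support. Their sizes were smaller in the deposited value table (log2 9.71 and 10.33 in control cells). The replicate block changed no other member's call than that of Ifitm6 in the difference between the inductions (1.11). With normexp and quantile normalization, and in the deposited value table with the same values, that difference was -0.40 for Ifitm6, -1.20 for Ifitm1 (called) and -0.081 for Ifitm2, the inductions of Ifitm5 were 0.57 and 0.34 (neither called), and the genes called fell to 96 at 0 h, 163 at 24 h and 288 for the difference between the inductions. Median scaling gave -0.085 for Ifitm2 and 212 genes for that difference, and -1.46 for Ifitm1 at 24 h (not called). Quantile normalization of the processed signal gave -0.014 for Ifitm2 in that difference and 1.21 for Ifitm5 in the line labelled knockdown (not called). With no filter on dim probes, 187 genes were called at 24 h and 121 for the difference between the inductions, and Ifitm1 at 24 h (-1.39) and Ifitm5 in the line labelled knockdown (1.44) were not called. Fitting only the arrays compared gave 166 genes at 0 h. Within slides the difference between the inductions of Ifitm5 was -1.47 and 0.75. Leaving out 1 array gave ranges of 1.39 to 2.22 for Ifitm5 in control cells, 0.98 to 1.91 for Ifitm5 in the line labelled knockdown, -0.93 to 0.40 for Ifitm3 at 0 h, -1.42 to -1.36 for Ifitm1 at 24 h, and, for the difference between the inductions, -0.055 to 0.17 for Ifitm2, -0.83 to 0.10 for Ifitm5, 0.42 to 1.76 for Ifitm3, -1.08 to -0.45 for Ifitm1 and 0.79 to 1.43 for Ifitm6. Where a group was left with 1 array, it was assumed to vary like the others. The cause of these shifts was not tested. Signal over background limits Ifitm1, Ifitm5 and Ifitm6 at 0 h, where only bounds can be given.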
